A study of Homo sapiens with 6 samples.

Results

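The cytosolic ribosomal protein genes encode the proteins of the ribosome that works outside the mitochondria. They were taken by symbol: protein-coding genes named RPL or RPS with a number, the stalk genes RPLP0 to RPLP2, and RPSA and FAU. Pseudogenes, the RPS6K kinases and genes on the Y chromosome were left out. The rule found 84 genes among the 38126 Ensembl gene IDs of the deposited files, 51 for the large subunit and 33 for the small subunit. Of the 84, 6 are paralogs of another member: RPL3L, RPL7L1, RPL22L1, RPL26L1, RPL39L and RPS27L.

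The genes were followed in 6 RNA-seq libraries of total RNA from HK-2, a human kidney line of immortalised proximal tubule epithelium. In 3 libraries the cells were untreated per the treatment label, and in the other 3 they had been kept with phosphoramidon for 24 h. Phosphoramidon blocks zinc-dependent peptidases, among them neprilysin and the enzyme that makes endothelin. Both groups are the same line, grown without serum in keratinocyte medium to which EGF and pituitary extract were added, and both are marked 24 h. The labels give no dose, do not explain the letters CSE in the titles of the untreated libraries, and do not say whether replicates were separate cultures, so the p-values speak only of the spread among these libraries, which may be technical.

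A ribosome is built from one copy of nearly every one of these proteins around the ribosomal RNAs, with several copies of the stalk proteins as the main exception. The small subunit holds the messenger RNA and reads the codons, and the large subunit joins the amino acids and lets the growing chain out through a tunnel. Most messenger RNAs for these proteins in vertebrates begin with a C followed by a run of pyrimidines, the 5′ terminal oligopyrimidine (TOP) start, through which mTOR signalling and the protein LARP1 govern their translation and stability. Several ribosomal proteins also act away from the ribosome, among them RPL5 and RPL11, which bind the p53 regulator MDM2.

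The start sites of 12 members are shown because they bear the TOP start, or lack it, in genes that the results below turn on. Each line gives 30 bases of the gene's own strand, 5′ to 3′, with 10 bases before the annotated start and 20 from it on. The sequences and starts are those of RefSeq on GRCh38.p14, and capitals mark the unbroken run of C and T that begins at the annotated start, where that start is a C followed by at least 4 pyrimidines.
RPL13A, chr19:49487598-49487627, plus strand: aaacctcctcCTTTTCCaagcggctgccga
RPL34, chr4:108620566-108620595, plus strand: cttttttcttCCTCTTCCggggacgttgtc
RPS14, chr5:150449720-150449749, minus strand: ccctcccactCTCTCTTTCCggtgtggagt
RPLP1, chr15:69452808-69452837, plus strand: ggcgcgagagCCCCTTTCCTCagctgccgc
RPL36A, chrX:101391001-101391030, plus strand: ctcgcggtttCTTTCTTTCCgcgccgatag
RPS10, chr6:34426050-34426079, minus strand: catgctccttCCTTTCCagccccggtaccg
RPL22, chr1:6199576-6199605, minus strand: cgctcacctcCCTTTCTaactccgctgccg
RPL22L1, chr3:170870176-170870205, minus strand: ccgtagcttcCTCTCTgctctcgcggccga
RPS27, chr1:153990752-153990781, plus strand: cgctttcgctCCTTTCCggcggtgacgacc
RPS27L, chr15:63157458-63157487, minus strand: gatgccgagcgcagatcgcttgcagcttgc
RPL26, chr17:8383174-8383203, minus strand: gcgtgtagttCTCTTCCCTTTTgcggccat
RPL26L1, chr5:172958719-172958748, plus strand: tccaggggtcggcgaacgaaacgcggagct

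Values are the deposited FPKM (fragments scaled by gene length and by the library's assigned total). Assigned totals, worked out from the FPKM steps, were 23493829 to 24815378 fragments in the untreated libraries and 18690100 to 24919568 with phosphoramidon, and 1 fragment on a gene of 1 kb was worth 0.0401 to 0.0535 FPKM. A change is a difference in log2(FPKM + 0.1) after TMM scaling between libraries, phosphoramidon minus untreated, with its standard error (SE) from limma. A gene is said to have fallen or risen where limma's Benjamini-Hochberg adjusted p over all tested genes is below 0.05. Of the 7 tubular epithelial markers looked at, 6 stood at 1 FPKM or more in untreated cells (PAX2 did not), and their summed level was 320.5 to 336.3 FPKM untreated and 281.6 to 291.8 with phosphoramidon. The 6 markers of the differentiated proximal tubule were below 1 FPKM, with SLC22A6 at 0 in every library. Sums were 0.134 FPKM or less for 3 leukocyte and 3 endothelial markers, and 0.787 to 0.936 untreated against 0.348 to 0.399 with phosphoramidon for 3 fibroblast markers. These marker sums moved between the groups, and their part in the results was not tested.

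Messenger RNA of the cytosolic ribosomal protein genes was lower as a group after phosphoramidon. Of 83 members that passed the filter on low values, 77 fell, 1 rose (RPL39L) and 5 did not pass the test. The same test called 17.9% of all 16175 tested genes lower and 15.6% higher, 33.6% in either direction. The members' median change was -0.39 (interquartile range -0.44 to -0.30), or -23.7%, beside a median of 0.01 over all tested genes (interquartile range -0.19 to 0.19). No member passed limma's treat test for a change beyond 1.5-fold (0 members at an unadjusted p below 0.05 too, and 0 on both counts with voom). By contrast, 130 of all tested genes passed it. The fitted falls of RPL22L1 (-38.6%), RPL13A (-36.4%) and RPL34 (-34.3%) were steeper than 1.5-fold, but the test did not show this beyond their error. Without TMM scaling, that is with the values as deposited, 73 members fell and 1 rose, beside 13.4% of all genes lower and 22.5% higher. In bulk RNA each value is a share of the library, so less of these messenger RNAs cannot be told from more of other RNA. Fewer cells of a type and less RNA per cell cannot be told apart either.

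The fall was present in each of the 3 phosphoramidon libraries. The median deviation of the 83 members from their untreated mean, on the TMM-scaled log2 scale, was 0.02, -0.01 and -0.01 for untreated replicates 1 to 3. It was -0.32, -0.42 and -0.41 for phosphoramidon replicates 1 to 3. Phosphoramidon replicate 1 lay nearest to the untreated cells. In 78 members every phosphoramidon library lay below the untreated mean. On the scaled values the groups did not overlap for 77 members that were lower and 1 that was higher. Over all tested genes 24.2% did so downward and 23.9% upward, 48.1% in all.

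**Figure D1:**
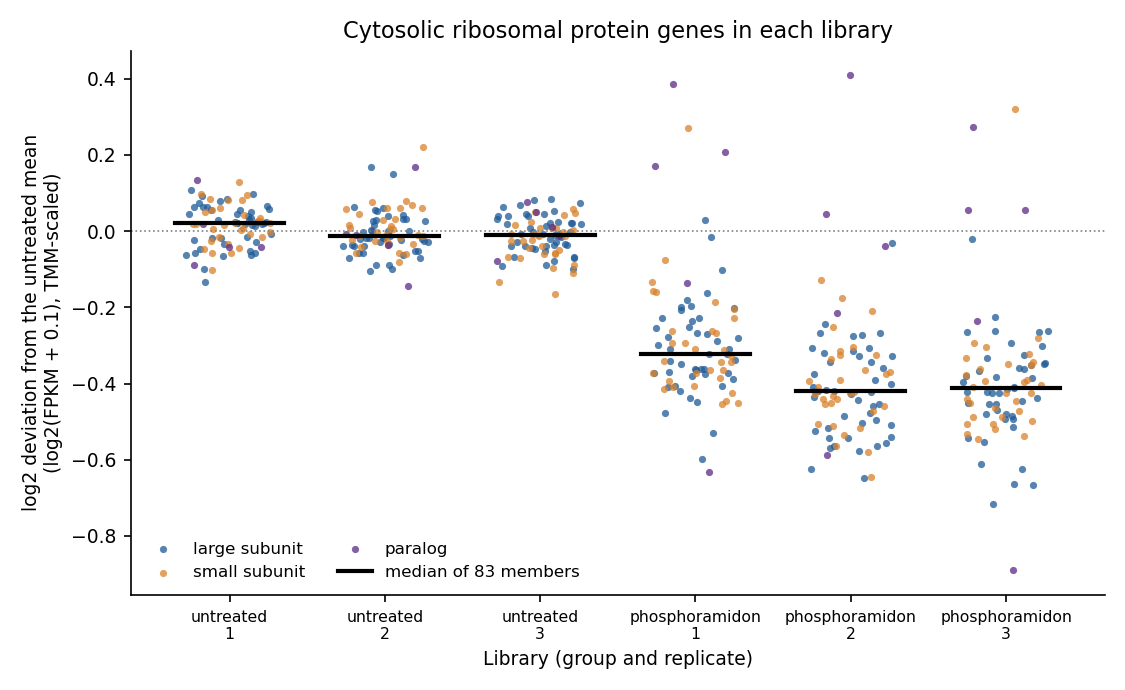
Deviation of each of the 83 tested members from its untreated mean (vertical axis, TMM-scaled log2(FPKM + 0.1)) in the 6 libraries, with a point per gene coloured by subunit or as a paralog and a bar at the median. The medians lie between -0.01 and 0.02 in untreated libraries and between -0.42 and -0.32 with phosphoramidon, and a few points, most of them paralogs, stay above 0 there.

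Summed over all 84 members, ribosomal protein messenger RNA took 3.29%, 3.29% and 3.24% of the assigned fragments in untreated replicates 1 to 3. The share was 2.72%, 2.55% and 2.59% with phosphoramidon. The groups did not overlap: the mean went from 3.27 ± 0.0330% to 2.62 ± 0.0886% (SD, n = 3 each, two-sided exact permutation p = 0.1, which is as low as 3 against 3 can go). Ribosomal protein pseudogenes, of which 887 are listed, took 0.0213 ± 0.00132% and 0.0198 ± 0.000934% (SD, n = 3 each, exact permutation p = 0.2), so little of the signal was placed on these copies. How fragments that match a gene and its pseudogenes were counted is not given in the sources used here.

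Both subunits had near-equal median changes. Large subunit members had a median change of -0.38, with 46 of 50 lower and 1 higher, and small subunit members had a median of -0.39, with 31 of 33 lower. Leaving the paralogs aside, the medians were -0.39 for the 46 large and -0.39 for the 32 small subunit members, and 44 and 31 of them fell. The fragments of the large subunit genes went from 2.09% to 1.67% of the library and those of the small subunit genes from 1.19% to 0.952%. Their ratio was 1.77, 1.74 and 1.77 in untreated replicates 1 to 3 and 1.75, 1.75 and 1.76 with phosphoramidon, which overlap. The mean ratio was 1.76 ± 0.0157 and 1.75 ± 0.00853 (SD, n = 3 each, exact permutation p = 0.7).

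The spread among members was narrow once paralogs and members with shared coding sequence were set aside. Among the 71 others, the standard deviation of the change was 0.0903 and 68 lay within 0.2 of their median of -0.40. That compares with a median standard error of 0.0505 for a single member. Over all 83 tested members the standard deviation was 0.161, and over all tested genes it was 0.362. In the ordered plot of changes the bulk of both subunits forms a continuous slope, and the few members off it are described below.

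**Figure D2:**
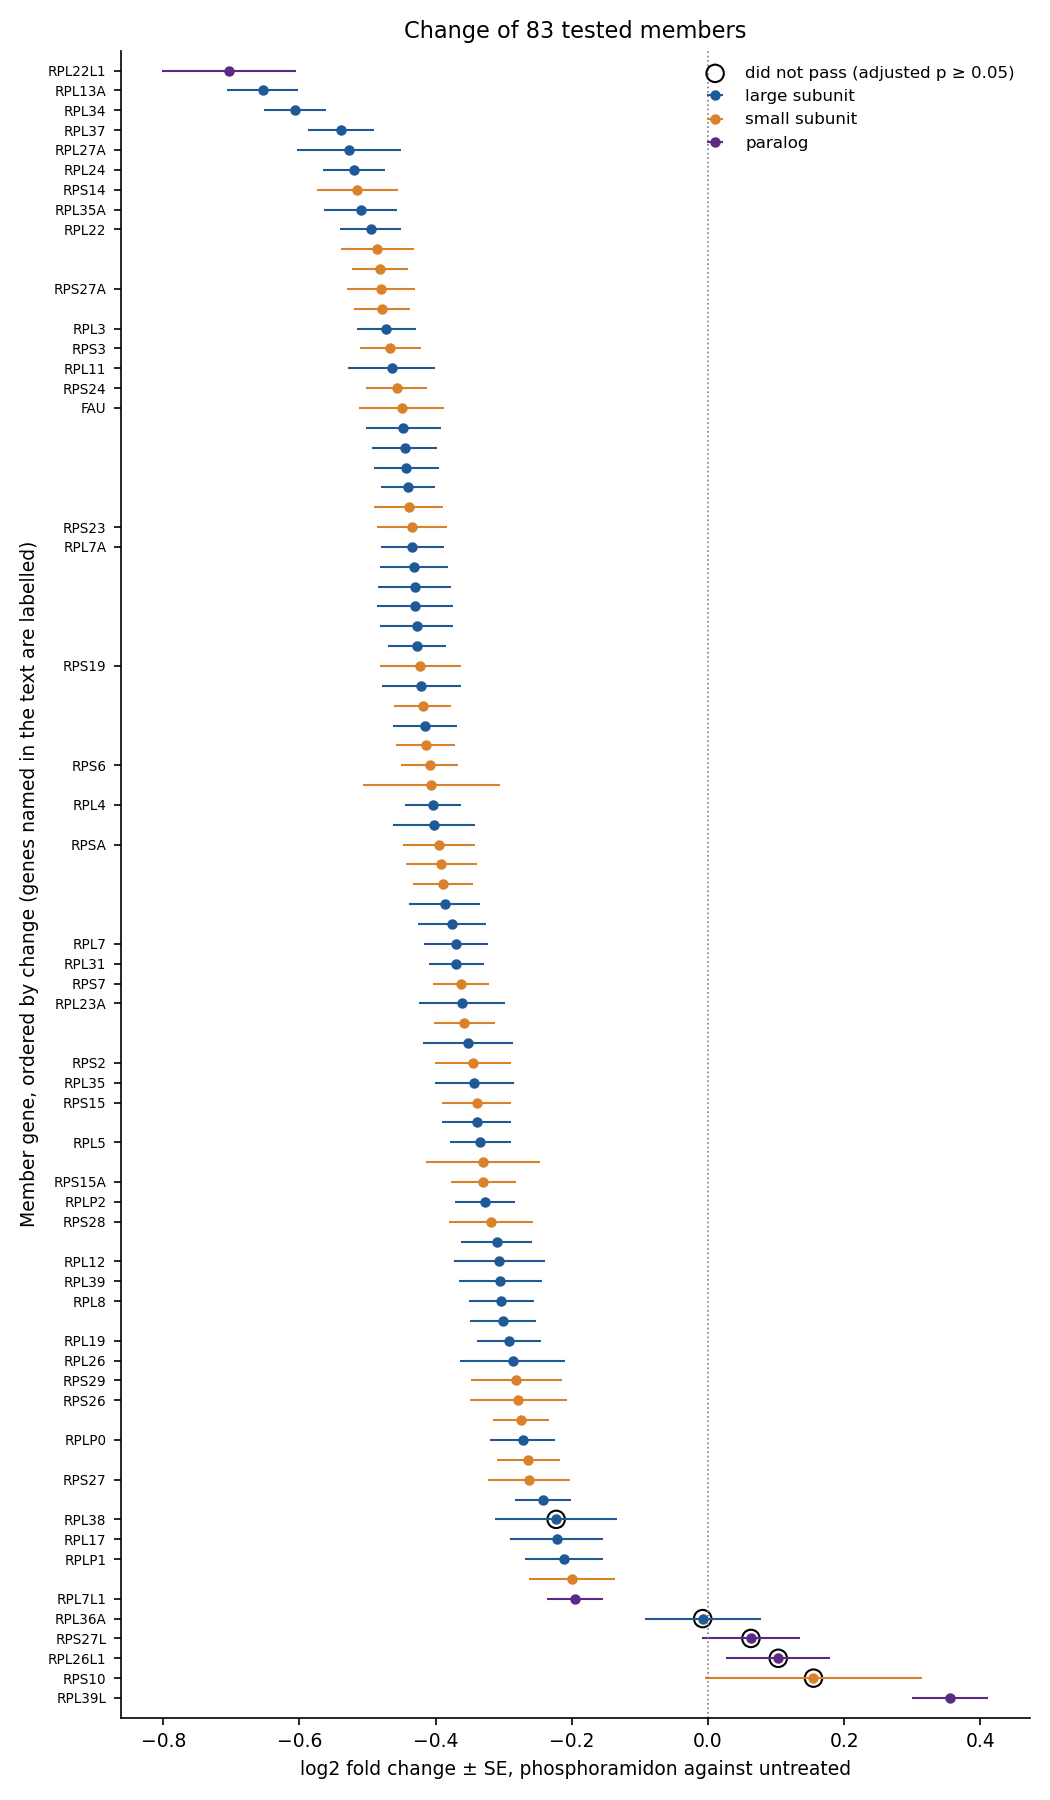
Change of each of the 83 tested members (horizontal axis, log2 fold change with its SE as the bar), ordered from the steepest fall at the top, coloured by subunit or as a paralog, with names for the genes described in the text and open circles on the 5 that did not pass the test. Changes run from -0.70 for RPL22L1 to 0.36 for RPL39L, and blue (large) and orange (small) points are mixed along the order.

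RPL13A had the steepest fall of the members other than paralogs. It encodes a large subunit protein that is also part of a complex silencing inflammatory messenger RNAs, and lies on the plus strand at chr19:49487554-49492308 (GRCh38, GENCODE 29). Its level was 432, 433 and 392 FPKM in untreated replicates 1 to 3 and 287, 281 and 271 with phosphoramidon. The groups lay far apart, with no treated library above 287. The change was -0.65 ± 0.05 (SE, n = 3 each, limma adjusted p = 6.2e-05), or -36.4%.

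RPL34, a large subunit protein (plus strand, chr4:108620566-108630412), read 41.3, 44.3 and 42.4 FPKM untreated and 30.6, 29.02 and 28.6 with phosphoramidon. Untreated libraries were all above treated ones, and the change was -0.61 ± 0.05 (SE, n = 3 each, limma adjusted p = 4.7e-05). RPL37, another large subunit protein (minus strand, chr5:40825262-40835335), read 40.7, 40.6 and 40.4 FPKM untreated and 30.8, 29.2 and 27.97 with phosphoramidon. Its untreated libraries were close together and all higher, and the change was -0.54 ± 0.05. In all, 8 members fell by more than 0.5 on the log2 scale: beside RPL22L1 and these 3 they were RPL27A (-0.53), RPL24 (-0.52), which forms a bridge to the small subunit, RPS14 (-0.51), which is lost on one allele in the 5q- syndrome, and RPL35A (-0.51). RPS14 was the steepest of the small subunit, at 48.65, 53.25 and 49.5 FPKM untreated and 38.9, 33.8 and 38.6 with phosphoramidon, again without overlap.

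The most abundant members fell as well. RPS2, which lies at the entry of the messenger RNA channel, had the highest level, at 508, 495 and 455 FPKM untreated and 418, 394 and 392 with phosphoramidon. Treated libraries were all lower, with a change of -0.34 ± 0.06. RPL8, a protein close to the peptidyl transferase centre, read 440, 436 and 416 FPKM untreated and 379, 349 and 372 with phosphoramidon, a change of -0.30 ± 0.05. RPL7A read 431, 445 and 413 untreated and 347, 322 and 334 with phosphoramidon, a change of -0.43 ± 0.05. The groups did not overlap for either gene.

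The acidic stalk of the large subunit recruits the translation factors that hydrolyse GTP, and each of its 3 genes changed by less than the members' median of -0.39. RPLP0, the base of the stalk, read 347, 334 and 332 FPKM untreated and 303, 279.5 and 299 with phosphoramidon, a change of -0.27 ± 0.05. RPLP1 read 77.3, 80.1 and 72.9 FPKM untreated and 74.1, 65.1 and 69.8 with phosphoramidon. On these deposited values treated replicate 1 overlapped the untreated libraries, and the change was -0.21 ± 0.06 (SE, n = 3 each, limma adjusted p = 0.022). RPLP1 passed the test on the scaled values but missed it in 7 of the alternatives tried (adjusted p 0.054 to 0.077). Those without untreated replicate 1 or 2 gave -0.19 and -0.19, and those without treated replicate 2 or 3 gave -0.16 and -0.20. RPLP2 changed by -0.33 ± 0.04. The stalk's median of -0.27 was not tested against the other members. RPL12, which sits beside RPLP0 at the stalk's base, changed by -0.31. RPL11, grouped with it at the base, changed by -0.46, and the median of these 2 was -0.39. The groups at the exit tunnel and at the messenger RNA exit, described below, each had a median of -0.30.

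The pair that carries its own small ribosomal RNA into the large subunit fell in both members. RPL5 read 146, 141 and 151 FPKM untreated and 124, 119 and 120.5 with phosphoramidon, a change of -0.33 ± 0.05. RPL11 read 183, 178 and 173 FPKM untreated and 144, 140 and 124 with phosphoramidon, a change of -0.46 ± 0.06. Neither gene's groups overlapped. The proteins that line the exit tunnel fell too: RPL4 changed by -0.40, RPL39 by -0.30 and RPL17 by -0.22. Around the mouth of the tunnel, RPL19, RPL23A (a docking site of the signal recognition particle), RPL26, RPL31 and RPL35 all fell, by -0.37 to -0.29.

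In the small subunit, RPS6, the long-known substrate of the S6 kinases, read 246, 253 and 246 FPKM untreated and 203, 195 and 191 with phosphoramidon. No treated library reached an untreated one, and the change was -0.41 ± 0.04 (SE, n = 3 each, limma adjusted p = 0.00019), or -24.7%. RPS3, beside RPS2 at the messenger RNA entry, changed by -0.47 ± 0.04. Near the decoding centre RPS23 changed by -0.43, RPS15 by -0.34 and FAU by -0.45. At the messenger RNA exit RPS26 changed by -0.28 and RPS28 by -0.32.

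FAU and RPS27A each encode a ribosomal protein fused to another protein, a ubiquitin-like one in FAU and ubiquitin itself in RPS27A. FAU read 49.4, 48.8 and 43.6 FPKM untreated and 38.0, 36.5 and 34.4 with phosphoramidon, and RPS27A changed by -0.48 ± 0.05. Both fell, and the groups did not overlap for either. Of 9 members linked to Diamond-Blackfan anaemia, an inherited red cell failure, 8 fell, among them RPS19, RPS24, RPS7 and RPL35A, with a median of -0.41 over the 9. The exception was RPS10.

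Members that did not pass the test were RPL38, RPL36A, RPS10, RPS27L and RPL26L1. RPL38 read 30.05, 31.5 and 33.5 FPKM untreated and 32.4, 27.6 and 25.7 with phosphoramidon, so that treated replicate 1 lay inside the untreated range. Its change was -0.22 ± 0.09 (SE, n = 3 each, limma adjusted p = 0.090). Without treated replicate 1 it was -0.33, with an adjusted p of 0.0055, while over the other alternatives the adjusted p ran from 0.057 to 0.23.

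RPS10 and RPL36A were the other non-paralogs that did not pass. RPS10, a protein of the small subunit's head (minus strand, chr6:34417454-34426125), was the lowest tested member at 1.05, 1.33 and 0.974 FPKM untreated and 1.41, 1.06 and 1.496 with phosphoramidon. The groups overlapped, and the change was 0.15 ± 0.16 (SE, n = 3 each, limma adjusted p = 0.49). RPL36A, a large subunit protein (plus strand, chrX:101390824-101396154), read 2.61, 3.28 and 2.87 FPKM untreated and 3.08, 2.99 and 3.04 with phosphoramidon. Its treated libraries lay inside the untreated range, and the change was -0.01 ± 0.09 (SE, n = 3 each, limma adjusted p = 0.96). Its sign turned with the values as deposited (0.061) and without untreated replicate 2 (0.065) or treated replicate 2 (0.0038).

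Both genes share most of their coding bases with a read-through gene of the same strand in GENCODE 29. RPS10 shares 56.9% with RPS10-NUDT3 and RPL36A shares 67.3% with RPL36A-HNRNPH2. The files give these 2 read-through genes at most 1 fragment in a library. Counters of the kind named in the submitters' notes can leave out or split fragments that fall on 2 genes, and which was done is not given in the sources used here. The values of RPS10 and RPL36A are therefore uncertain.

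Altogether 7 members share at least 30% of their coding bases with another gene on the same strand. Among them are RPS15A (36.9%), RPS10, RPL22 (59.4%), RPL26 (60.7%), RPL36A and RPL17 (98.2%). Their untreated levels were 1.12 to 26.8 FPKM, and 6 of the 7 lowest members outside the paralogs are among them. The other 71 non-paralog members stood at 6.30 to 486 FPKM. RPS15A, RPL22, RPL26 and RPL17 fell. RPL17 lost its call in 8 of the alternatives tried, among them without untreated replicate 1 (-0.16) or 2 (-0.24) and without treated replicate 2 (-0.21) or 3 (-0.20). RPL26 lost its call in 5, among them without treated replicate 2 (-0.29) or 3 (-0.25). RPS26, which is not one of the 7, lost its call without untreated replicate 1 (-0.22) and in 2 other alternatives.

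Levels differed widely between members. Untreated FPKM ran from 1.12 for RPS10 to 486 for RPS2, a ratio of 435, with a median of 105. Over the 71 members without paralogs or shared coding sequence the ratio of the highest to the lowest was 77.2. The gene lengths behind FPKM are those of all exons merged. For non-paralog members that length was a median of 5.11 times the shortest coding transcript and up to 33.3 times in RPS29, a small zinc-binding protein of the small subunit. RPS29 read 6.33, 6.20 and 6.35 FPKM untreated and 5.565, 5.71 and 5.02 with phosphoramidon, without overlap. Per kilobase of the shortest coding transcript, the highest of the 71 was 19.4 times the lowest.

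The size of the fall was set against abundance across members. Over all 83 tested members the change had a Pearson r of -0.42 and a Spearman rho of -0.15 with the mean log2 level. Without the paralogs these were -0.38 and -0.06 (78 members), and without the 7 members of shared coding sequence as well they were 0.01 and 0.08 (71 members). These values describe genes of the same 6 libraries, which are not independent, and carry no test. The members that set the first r are the low ones: of the 14 members below 30 FPKM, 9 fell, and of the 69 above it, 68 fell.

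Members were then counted beside other genes of the same abundance. Between 30 and 100 FPKM, 29 of 30 members fell with a median of -0.41, beside 35.4% of 898 other tested genes with a median of -0.06. From 100 to 300 FPKM all 31 members fell with a median of -0.40, beside 41.1% of 168 others with a median of -0.11. At 300 FPKM and above all 8 members fell with a median of -0.38, beside 30.9% of 55 others with a median of -0.01. The frequencies are descriptions of these bins and were not tested.

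**Figure D3:**
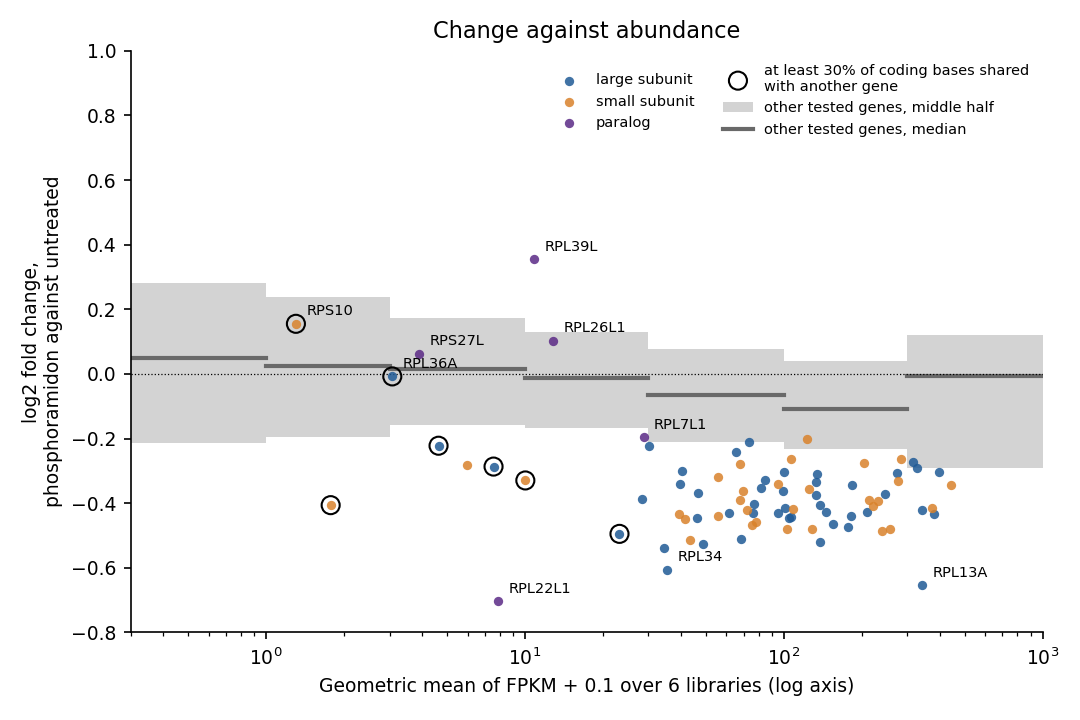
Change of each tested member (vertical axis, log2 fold change) against its geometric mean of FPKM + 0.1 over 6 libraries (horizontal log axis), with a grey band for the interquartile range and a line for the median of other tested genes in each abundance bin. Members above 30 FPKM lie in a level cloud with medians of -0.41, -0.40 and -0.38 over the 3 highest bins, and the ringed members with shared coding bases sit at low levels.

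The paralogs spread over the whole range of change. RPL22L1, which can stand in for RPL22 and whose messenger RNA RPL22 is known to repress, had the steepest fall of all members. It lies on the minus strand at chr3:170864875-170870483 and read 8.99, 11.1 and 9.14 FPKM untreated and 6.44, 6.73 and 5.51 with phosphoramidon. The groups did not overlap, and the change was -0.70 ± 0.10 (SE, n = 3 each, limma adjusted p = 0.0011), or -38.6%. RPL22 itself read 25.5, 27.7 and 27.1 FPKM untreated and 19.9, 19.1 and 20.8 with phosphoramidon, a change of -0.50 ± 0.04. Both genes of the pair fell, and both carry a TOP start in the lines above.

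RPL39L was the member that rose. It is a paralog of the exit-tunnel protein RPL39, best known from the testis, and lies on the minus strand at chr3:187120948-187180908. Its level was 8.86, 9.12 and 9.71 FPKM untreated and 12.5, 12.9 and 11.9 with phosphoramidon. Every treated library was higher, and the change was 0.36 ± 0.06 (SE, n = 3 each, limma adjusted p = 0.0017). RPL39 fell from 103, 108 and 114 FPKM to 97.9, 85.1 and 93.9, a change of -0.30 ± 0.06.

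The other 3 tested paralogs had changes between -0.20 and 0.10. RPL7L1, a relative of RPL7, read 29.97, 30.2 and 29.6 FPKM untreated and 28.2, 27.1 and 27.0 with phosphoramidon. It fell by 0.20 on the log2 scale (SE 0.04, n = 3 each, limma adjusted p = 0.0068), and RPL7 changed by -0.37 ± 0.05. RPL26L1 read 13.1, 11.0 and 12.1 FPKM untreated and 14.4, 13.0 and 13.3 with phosphoramidon, which overlap by 1 library, with a change of 0.10 ± 0.08 (SE, n = 3 each, limma adjusted p = 0.34). RPS27L, a gene that p53 is known to induce, read 3.47, 3.64 and 3.73 FPKM untreated and 4.23, 3.69 and 4.00 with phosphoramidon, which also overlap, with a change of 0.06 ± 0.07 (SE, n = 3 each, limma adjusted p = 0.54). RPL3L, the heart and skeletal muscle relative of RPL3, was at 0.0309, 0 and 0.0292 FPKM untreated and 0.116, 0.116 and 0.130 with phosphoramidon, too low to test. RPL3 itself changed by -0.47 ± 0.04.

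Set against its partner in the same library, RPL39L had the largest difference of the 6 pairs. The log2 ratio of RPL39L to RPL39 was -3.52, -3.56 and -3.54 untreated and -2.95, -2.71 and -2.97 with phosphoramidon, a difference of 0.66. That is 8.51% of the partner's level untreated and 13.5% with phosphoramidon. The ratio was also higher in every treated library for RPL26L1 over RPL26 (difference 0.39), RPS27L over RPS27 (0.32) and RPL7L1 over RPL7 (0.17). For each of these 4 ratios the exact permutation p was 0.1, as low as 3 against 3 can go, or 0.15 after Benjamini-Hochberg adjustment over the 6 pairs, so none passed. The ratio of RPL22L1 to RPL22 differed by -0.21 with overlapping groups (exact permutation p = 0.3, adjusted 0.36). RPL36AL, a copy of RPL36A outside the naming rule, stood at 86.1, 83.8 and 86.4 FPKM untreated and 91.3, 88.5 and 81.1 with phosphoramidon. Its ratio to RPL36A differed by -0.04 (exact permutation p = 0.8, adjusted 0.8), and the sign of that difference turned without untreated replicate 1 (0.044) or treated replicate 3 (0.014). The partners RPL26, RPL22 and RPL36A are among the members with shared coding bases, so the ratios over these partners are uncertain. In untreated cells RPL26L1 stood at 151% of RPL26 and RPL36AL at 2956% of RPL36A.

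**Figure D4:**
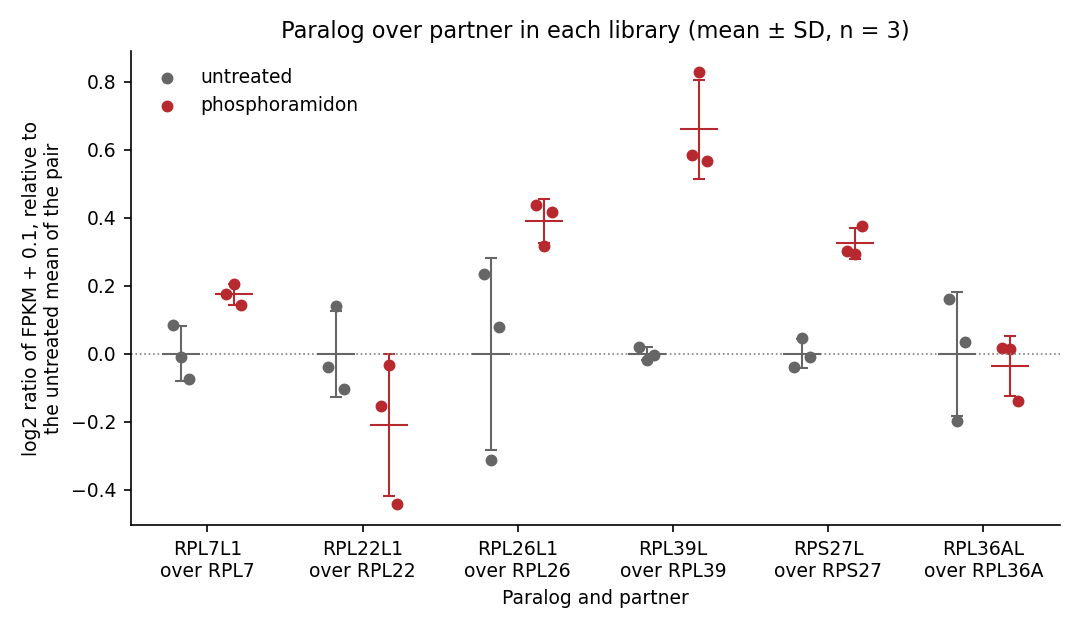
Log2 ratio of FPKM + 0.1 of each paralog to its partner in each library, set relative to the untreated mean of the pair (vertical axis), with points for the 3 untreated (grey) and 3 phosphoramidon (red) libraries and bars for mean ± SD. The treated points of RPL39L lie highest, with a mean of 0.66, and those of RPL22L1 have a mean of -0.21 and overlap the untreated points.

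Most members carry a TOP start. The search read 1 position, the annotated start on the gene's own strand, for a C followed by at least 4 C or T. Of the 67 members in the RefSeq promoter table, 48 (71.6%) had such a start, beside 5.14% of all 27305 genes of the table and 6.75% of the other tested genes. The longest run of C and T within 5 bases of the start had a median of 11 bases in members and 4 in all genes. RPL7L1, RPS27L and RPL26L1 have no such start in the annotated position, while RPL22L1 does. RPL39L, the member that rose, is not among the 67. A match, or its lack, describes letters in this window and the annotated start, which can differ from the start used in these cells.

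Members with a TOP start had a median change of -0.42, and 45 of 48 fell. The 3 that did not pass were RPL38, RPL36A and RPS10. Of the 19 tested members without such a start 17 fell, with a median of -0.32. Within 5 bases of the annotated start, the longest run had a median of 5 bases in these 19 and of 12 in the 48. Among the 19 it reached 16 in RPL17, 12 in RPL19 and 11 in RPS7, and was 1 in RPL4 and RPL9. Leaving paralogs aside, all 16 without it fell (median -0.35), as did 44 of 47 with it (median -0.42). Among other tested genes 192 of 768 with such a start fell, with a median of -0.05, as did 1961 of 10604 without it (18.5%). The difference between the groups of members was not tested.

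Genes around the ribosome were counted from lists of known function. Among 14 tested translation factors and chaperones whose messenger RNAs are known TOP transcripts, 12 fell (85.7%), with a median of -0.32. Over all tested genes 17.9% fell, but most of the 14 stood at levels where more genes were called. Of tested genes outside the members, 35.4% fell from 30 to 100 FPKM, 41.1% from 100 to 300 and 30.9% at 300 and above. EEF1A1, the elongation factor that brings aminoacyl-tRNA to the ribosome, read 1748, 1762 and 1739 FPKM untreated and 1513, 1423 and 1420 with phosphoramidon, a change of -0.34 ± 0.05. EEF1B2, its exchange factor, changed by -0.57, NACA by -0.47, EIF4B by -0.45 and EEF2 by -0.33. EEF1D (-0.13) and TPT1 (-0.13) did not pass. RACK1, a scaffold protein bound to the small subunit, fell by 0.38 on the log2 scale.

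Of 20 chaperones of ribosomal proteins and late assembly factors, 6 fell, 1 rose and 13 did not pass, with a median of -0.11. Taken in either direction, that share of calls is close to the 33.6% over all tested genes, but the calls were mostly lower. Over all tested genes the calls were more even, with 17.9% lower and 15.6% higher. Of the 20, 16 had a change below 0, beside 7866 of all 16175 tested genes. This difference in direction was not tested. EIF6, which keeps the large subunit from joining too early, read 76.6, 72.4 and 67.8 FPKM untreated and 44.1, 43.5 and 44.4 with phosphoramidon, a change of -0.78 ± 0.05. ZNF622 (-0.57), NOB1 (-0.37), NMD3 (-0.35), GTPBP4 (-0.29) and GRWD1 (-0.15) also fell, and LSG1, which releases the export adaptor NMD3, rose by 0.23. Of 11 genes of RNA polymerase I and its factors, which transcribe ribosomal RNA, 0 passed by limma and 0 by voom, with 0 at an unadjusted p below 0.05 by either, and the median was -0.03.

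Of the 77 mitochondrial ribosomal proteins, which build the separate ribosome of that organelle, 33 fell and 44 did not pass, with a median of -0.17. The share that fell was 42.9%, beside 17.9% of all tested genes. Of tested genes outside the cytosolic members, 19.5% fell from 3 to 10 FPKM and 25.9% from 10 to 30, where most of the 77 stood. Among 15 genes of signalling to TOP messenger RNAs 5 rose and 5 fell, beside 15.6% and 17.9% of all tested genes. MTOR, the kinase at its centre, read 14.5, 15.2 and 14.6 FPKM untreated and 20.4, 19.9 and 19.9 with phosphoramidon, a change of 0.37 ± 0.04. RPS6KB1, which encodes an S6 kinase, rose by 0.46, EIF4EBP2 by 0.27, RHEB by 0.21 and LARP4 by 0.16. EIF4EBP1, a repressor of cap-dependent translation, changed by -0.69, MLST8 by -0.35, RPTOR by -0.23, CNBP by -0.20 and LARP1 by -0.13, and all 5 fell.

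The members lie on 21 chromosomes. The most, 12, are on chromosome 19, and all 12 fell with a median of -0.42. That is near the share over all tested members, of which 77 of 83 fell with a median of -0.39. The 9 on chromosome 3 include both the member that rose and the one that fell most, RPL39L and RPL22L1.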

How the data were processed

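RNA-seq was measured in 3 untreated and 3 phosphoramidon libraries of HK-2 cells. The deposited values are FPKM per gene, as found from the values. The build GRCh38 and the tools featureCounts 1.6.0, HISAT2 2.1.0, Trimmomatic 0.38, DESeq2 1.22.1, MultiQC, CASAVA and FastQC stand in the submitters' processing notes, with no role. Whether strand was used, which annotation release, and how shared reads were handled is not given in the sources used here. Multiplied by gene length, FPKM fell on whole multiples of 1 step per library (tolerance 0.05). The merged exon length of GENCODE 29 gave whole fragments for 79.2% of 34623 genes above 0 and for 43 of 84 members, and a length was searched for the rest, so that fragments per kilobase of those 41 members rest on it.

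Genes with at least 10 fragments in at least 3 libraries were tested (16175) on log2(FPKM + 0.1) after TMM factors (30% of M and 5% of A values trimmed), with limma 3.58.1 in R 4.3.3, trended and robust, and Benjamini-Hochberg adjustment. A fold change on this scale understates that of low genes. TMM raised the genes called lower from 2169 to 2902 and lowered those called higher from 3647 to 2531. Symbols matched 37892 IDs. Replicates differed from each other beyond sampling noise, with a chi-square per gene of 2.34 to 4.68. Members and lists were chosen with earlier results of these data known. Members were named where they were among the 3 highest or lowest levels, the 4 highest or lowest changes, a paralog pair, a described role group, or did not pass. RPL27A, RPL24, RPS14, RPL35A and RPS29 were added after their values were seen. Replicates were not paired: same-numbered libraries had deviations correlated at 0.11, -0.02 and -0.01. Alternatives changed the pseudocount, filter, scaling, fit, threshold, block or libraries. The RefSeq promoter table matched 67 members. The results of some members and list genes are not reported here.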

Additional observations from a re-analysis of the deposited data

How the results depend on the processing

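Members called lower numbered 68 to 78 under all alternatives and RPL39L rose in each. With the values as deposited the median change was -0.32 for the members, -0.31 for the large and -0.32 for the small subunit, and leaving out a library gave members' medians of -0.42 to -0.37 and 71 to 78 lower. With the replicate block, 77 members were lower, with a median of -0.39, and no named member lost its call; the numbers do not pair the libraries. The rank correlation of change with abundance was -0.15, and was -0.24 per kilobase of coding transcript, -0.22 with a pseudocount of 1, -0.27 with fragments, 0.12 without paralogs and members below 10 FPKM, and 0.076 without paralogs and shared coding bases. The first and last were added after seeing the data. The difference in the members' share of fragments, -0.65 points, was -0.80 with each of the 3 sets of scaling factors. RPL36A, which did not pass, changed sign to 0.00073 with at least 50 fragments, 0.061 as deposited and 0.0038 without phosphoramidon replicate 2, and ran from -0.067 to 0.065 over libraries left out in turn. The ratio of RPL36AL to RPL36A became 0.044 without untreated replicate 1 and 0.014 without phosphoramidon replicate 3, within a range of -0.14 to 0.044. Over all genes 2531 were higher with the filter and 1377 without it, where 34623 genes were tested in place of 16175. The cause of the other differences was not tested. Depth limits RPS10 and RPL3L most.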

Other observations

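Around RPL22L1, the member with the steepest fall, 4 other tested genes lie within 200 kb, all on the same strand. EIF5A2, 17.9 kb away, rose by 0.36 on the log2 scale (limma adjusted p = 0.0087). SLC2A2, the low-affinity glucose transporter, 125.9 kb away, went from 39.4 ± 0.793 to 7.32 ± 0.656 FPKM (SD, n = 3 each), a change of -2.49. RNU1-70P, a small nuclear RNA pseudogene that lies just beside SLC2A2, changed by -2.61, and TNIK, 190.9 kb away, by -0.52, both called lower. These neighbours were looked at after the values were seen.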
